A study of Homo sapiens with 15 samples.

Results

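The 34 genes described here encode enzymes, carriers and regulators of fatty acid synthesis, elongation, desaturation, activation and glycerolipid assembly, and were taken by gene symbol from a table of 26475 genes. The list goes by function and applies no measured value as a criterion, but it was drawn up with earlier results of these data known. All 34 were in the table, and all passed the filter on low counts that left 12795 genes for testing. They were followed in A549, an established epithelial cell line from a human adenocarcinoma of the lung, by RNA sequencing of 15 libraries in 5 groups of 3. The groups were IL4 with an ALOX15 siRNA at 1 uM (ALOX15 siRNA), IL4 with a substance named only as Compound A (Compound A), IL4 with a control siRNA (control siRNA), IL4 alone (IL4) and untreated cells. IL4 is interleukin-4, a cytokine of type 2 immunity, given at 10 ng/ml to every group but the untreated one, and the time was 48 h. ALOX15 encodes a lipoxygenase, an oxygenase of polyunsaturated fatty acids. What Compound A is, how much of it was used, whether a vehicle was given and how much control siRNA was used are not given in the sources used here. No label says that replicates were separate cultures, and the p-values reflect only the spread among these libraries, which may be technical.

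Fatty acid synthesis starts from citrate that leaves the mitochondrion and is cleaved in the cytosol to acetyl-CoA, which is carboxylated to malonyl-CoA and joined into palmitate by fatty acid synthase. Elongases lengthen the chain, desaturases place double bonds in it, and acyltransferases attach the activated acids to glycerol phosphate to build phospholipids and triglycerides. Many of these genes are known targets of the transcription factor SREBP-1, and in the lung alveolar type II cells use the pathway to make surfactant lipid.

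Library totals ran from 6407936 to 11031246 counts, and levels are given as counts per 1e+06 counts after TMM scaling (CPM). ALOX15 averaged 0.257 ± 0.104 CPM with ALOX15 siRNA, 2.21 ± 0.388 with Compound A, 3.57 ± 0.329 with control siRNA, 5.27 ± 0.661 with IL4 and 0.136 ± 0.151 in untreated cells (SD, n = 3 each), so the siRNA libraries matched their labels. The epithelial keratins KRT8 and KRT18 reached 5646 and 4646 CPM, while of 8 alveolar type II markers SFTPB was at 0 in all 15 libraries, SFTPA1 and SFTPC were at 0 in 13 of 15 each, and SFTPA2, SFTPD and NAPSA stayed below 1 CPM. The other two, the lipid transporter gene ABCA3 and LAMP3, reached 71.8 and 6.58 CPM. Of the leukocyte, fibroblast and endothelial markers, PTPRC, CD3E, COL1A2 and KDR were at 0 in all 15. Others of the same lists were not. CD68 and ITGAM reached 21.15 and 2.997 CPM, and COL1A1, COL3A1 and LUM reached 22.51, 2.944 and 1.966 CPM. PECAM1 and VWF were found in some libraries, below 1 CPM.

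One library, IL4 replicate 1, was unlike the other IL4 libraries. The chi-square per degree of freedom between libraries was 10.2 and 13.7 between it and IL4 replicates 2 and 3, against 2.46 between those. Of the 34 members, 22 were highest and 9 lowest in this library among the IL4 libraries. Its log2 level relative to its mates followed the GC content of the transcript, with Spearman's rho = 0.846 over the 34 members and 0.715 over 12179 genes with a GC value, a description across genes within 1 library that are not independent. FASN and SREBF1, both GC-rich, stood 0.64 and 0.62 above the mates on the log2 CPM scale, and ELOVL7, which is GC-poor, stood at -0.51. Untreated replicate 1 also stood apart, to a lesser degree. Its chi-square per degree of freedom was 5.42 and 5.41 with untreated replicates 2 and 3, against 1.615 between those. Relative to them, FASN, SREBF1 and ELOVL7 stood at 0.47, 0.35 and -0.26 in it. Every comparison was therefore also computed without IL4 replicate 1, without untreated replicate 1 and after a correction for GC content.

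**Figure D1:**
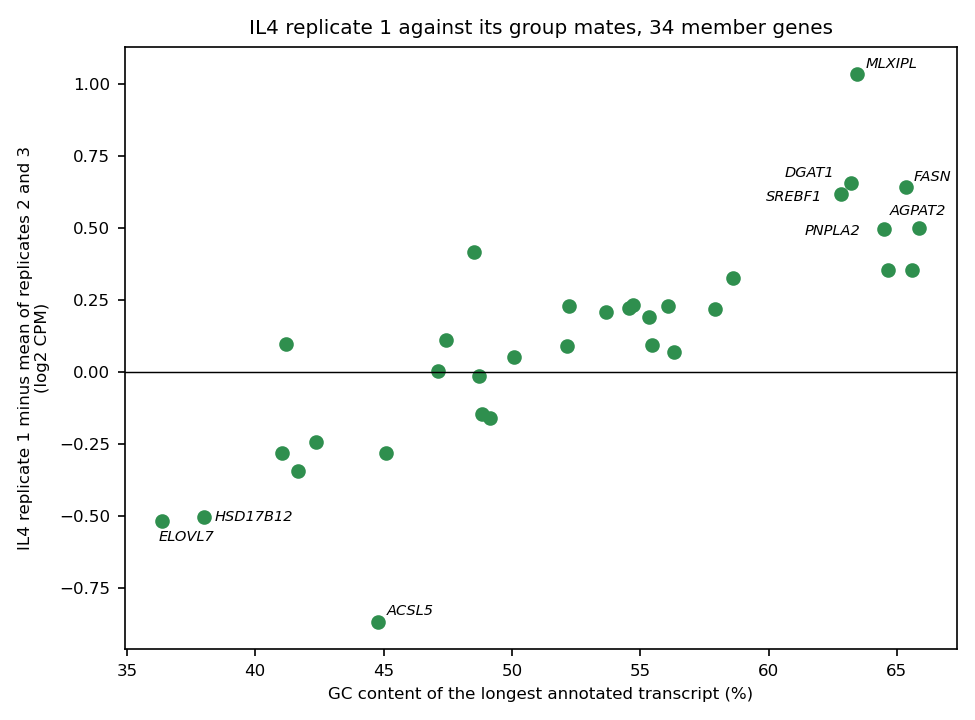
Each point is 1 of the 34 member genes; the x axis is the GC content of its longest annotated transcript in percent, and the y axis is its log2 CPM in IL4 replicate 1 minus the mean of IL4 replicates 2 and 3. GC-rich genes such as FASN (0.64) and SREBF1 (0.62) lie above the line at 0 and ELOVL7 (-0.51) lies below it.

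The promoters of 4 members are shown because these genes had the smallest adjusted p against IL4 among the members that were lower with Compound A in both comparisons made below. The sequences are those of RefSeq on GRCh38.p14, from 250 bases before to 50 bases after the 1 start that the RefSeq table gives for each gene, 5′ to 3′ on the gene's strand. Transcripts of a gene can start elsewhere: the windows of ACLY, FADS2 and FADS3 lie inside their GENCODE gene ranges, away from the outer start. The range of FADS3 is chr11:61873519-61892051, and those of ACLY and FADS2 are given below. Capitals mark CCAAT, the core of the NF-Y motif, on either strand; TCACNCCAC, the SREBP motif searched, has no match in these 4. The windows are chr17:41918973-41919272 on the minus strand for ACLY, chr10:100346983-100347282 on the plus strand for SCD, chr11:61815953-61816252 on the plus strand for FADS2 and chr11:61891496-61891795 on the minus strand for FADS3.
ACLY: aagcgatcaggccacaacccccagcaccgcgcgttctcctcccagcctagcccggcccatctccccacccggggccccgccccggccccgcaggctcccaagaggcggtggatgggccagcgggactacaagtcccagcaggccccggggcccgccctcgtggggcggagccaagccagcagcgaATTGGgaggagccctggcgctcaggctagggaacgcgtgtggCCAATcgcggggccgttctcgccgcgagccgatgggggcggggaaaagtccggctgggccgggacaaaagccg
SCD: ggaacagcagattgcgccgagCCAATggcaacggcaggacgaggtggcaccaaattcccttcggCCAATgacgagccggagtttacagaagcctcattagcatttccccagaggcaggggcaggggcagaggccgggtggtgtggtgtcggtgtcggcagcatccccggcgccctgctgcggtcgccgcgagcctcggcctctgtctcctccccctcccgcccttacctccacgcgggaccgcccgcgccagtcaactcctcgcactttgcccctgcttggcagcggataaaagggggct
FADS2: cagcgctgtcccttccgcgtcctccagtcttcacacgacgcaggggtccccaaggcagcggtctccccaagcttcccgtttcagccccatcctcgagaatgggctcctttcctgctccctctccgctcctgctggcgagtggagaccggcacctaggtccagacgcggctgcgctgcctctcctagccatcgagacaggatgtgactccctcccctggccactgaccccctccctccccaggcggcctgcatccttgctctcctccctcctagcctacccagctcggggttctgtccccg
FADS3: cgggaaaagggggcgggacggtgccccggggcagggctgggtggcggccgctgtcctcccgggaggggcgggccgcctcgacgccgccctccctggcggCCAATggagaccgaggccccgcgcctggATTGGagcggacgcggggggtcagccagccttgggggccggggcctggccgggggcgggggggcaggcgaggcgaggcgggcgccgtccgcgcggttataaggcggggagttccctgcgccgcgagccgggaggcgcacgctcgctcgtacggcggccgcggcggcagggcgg
Of these 4 windows, those of ACLY, SCD and FADS3 hold CCAAT and that of FADS2, at this start, does not. RefSeq promoters were matched for 30 of the 34 members; FASN, HSD17B12, DGAT1 and DGAT2 had none. CCAAT was present in 15 of the 30, or 50%, against 35.7% of 27305 promoters of the same length. GGGCGG, the core of the Sp1 motif, was present in 24 of the 30, or 80.0%, against 44.6% of all. TCACNCCAC was found in MID1IP1 and PNPLA2, or 6.67%, against 1.15%. CACGTG was found in ELOVL5 (3.33% against 7.43%) and AGGTCA in ELOVL6, ACSL5 and PNPLA2 (10.0% against 13.9%). Motifs were searched on both strands without regard to overlap with each other, and a match is only a run of letters.

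SCD, the stearoyl-CoA desaturase that makes monounsaturated fatty acids, was the most abundant member. Per kilobase of exon, SCD averaged 507 CPM over the 15 libraries, followed by ACLY at 184 and FADS2 at 112, and the lowest were DGAT2 at 0.566 and ACSL5 at 0.231. SCD alone held between 31.2% and 45% of all member counts in a library. Together the 34 genes took 0.862% ± 0.0194 of all counts with ALOX15 siRNA, 0.595% ± 0.0403 with Compound A, 0.723% ± 0.0131 with control siRNA, 0.749% ± 0.048 with IL4 and 0.639% ± 0.0344 in untreated cells (SD, n = 3 each). Without SCD the shares were 0.480% ± 0.00505, 0.377% ± 0.0152, 0.450% ± 0.00963, 0.466% ± 0.0361 and 0.438% ± 0.0231 in the same order of groups. The ALOX15 siRNA libraries held the largest share in all 3 replicates, and the Compound A libraries, at 0.568% to 0.641%, overlapped the untreated ones, at 0.610% to 0.677%. In bulk libraries, fewer cells that use a gene and less of its RNA per cell cannot be told apart.

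**Figure D2:**
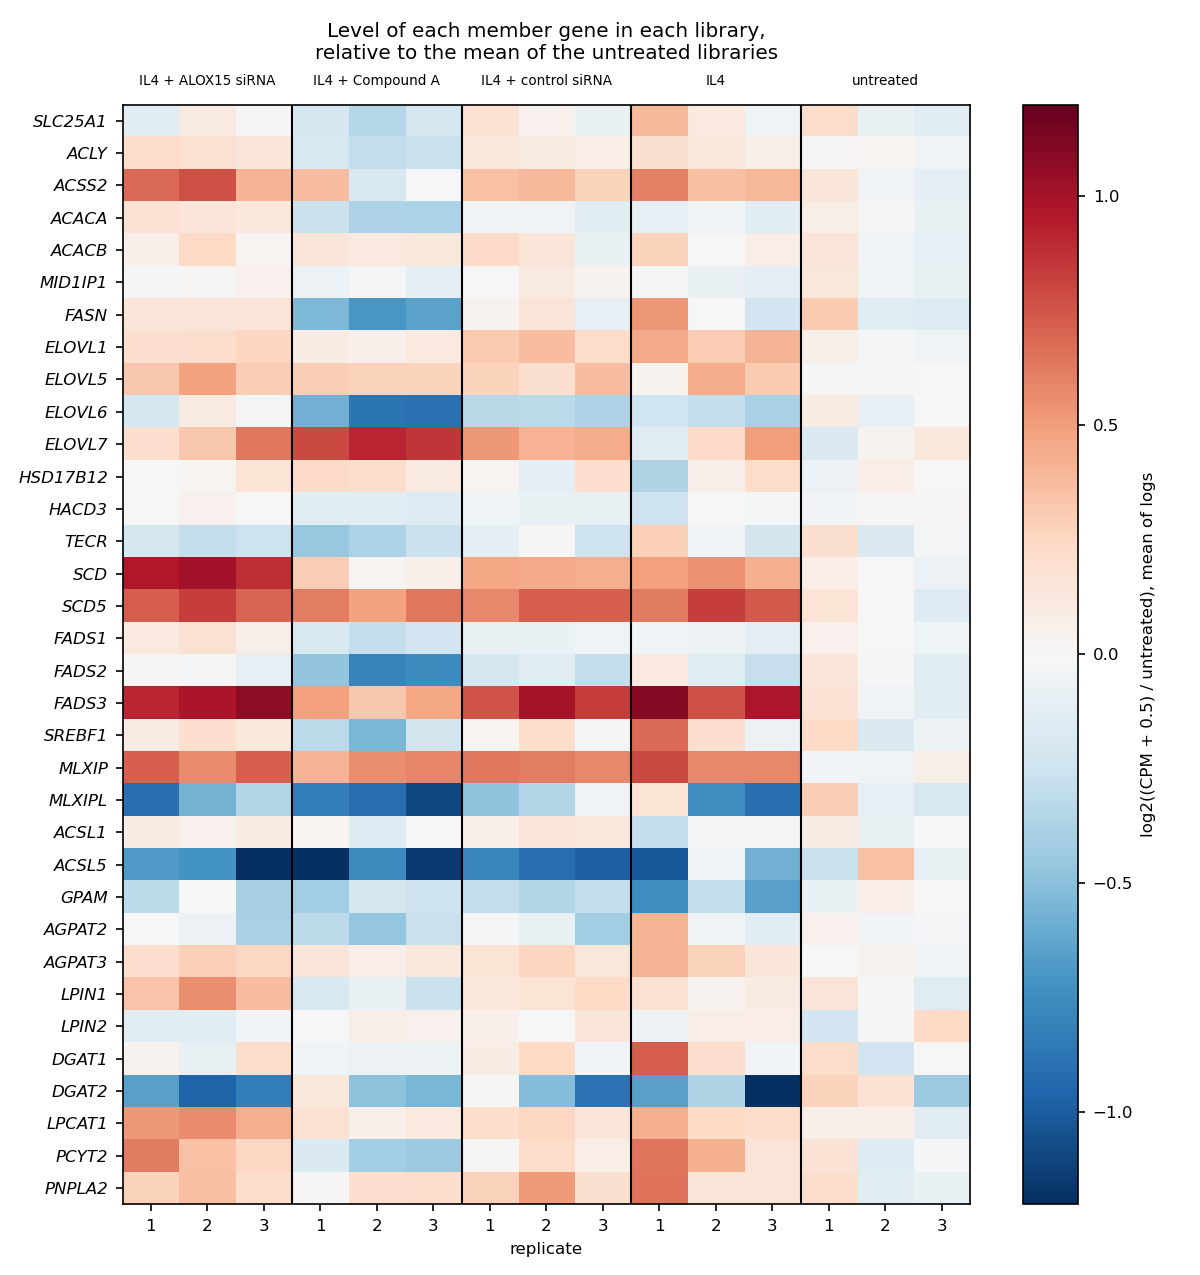
Colour shows the log2 level of each of the 34 members (rows, ordered by role) in each of the 15 libraries (columns, by group and replicate), relative to the mean of the untreated libraries, with 0.5 CPM added to each value; values past the scale take its end colour. SCD is darkest in the ALOX15 siRNA libraries, and FADS3, SCD5 and MLXIP are raised in the libraries that received IL4. FASN, FADS2 and ELOVL6 are each bluer with Compound A than in the other groups. The scarcer ACSL5 and MLXIPL are also blue there.

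With IL4, 11 members rose and 2 fell relative to untreated cells. This was 32.4% and 5.88% of the 34, against 11.2% and 11.6% of all genes tested, or 22.9% in either direction. The median log2 change was 0.11 over the members and -0.022 over all genes. The call rule throughout is an adjusted p below 0.05 in edgeR's quasi-likelihood test, with Benjamini-Hochberg adjustment over all genes tested. A further set of IL4-treated libraries, those with control siRNA, gave 7 members higher (20.6%, background 9.93%) and 2 lower (5.88%, background 9.36%, or 19.3% in either direction) against the same untreated libraries. Leaving out 1 library gave 11 to 15 members with IL4 and 6 to 14 with control siRNA, and that of control siRNA was 14 without IL4 replicate 1 in the shared fit. Over all genes these fits called 15.3% to 25.6% with IL4 and 14.1% to 26.4% with control siRNA. After GC correction 10 members were higher and 5 lower with IL4, and 8 higher and 4 lower with control siRNA. The same correction called 1536 genes higher and 2019 lower of the 12795 with IL4 (27.8% in either direction), and 1593 higher and 1902 lower with control siRNA (27.3%). A fit of the IL4 and untreated libraries only called 7 members, beside 11.7% of all genes.

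With Compound A, 16 members fell and 1 rose relative to IL4. This was 47.1% and 2.94% of the 34, against 8.07% and 6.35% of all genes or 14.4% in either direction, and the median log2 change was -0.26 over the members and 0.0019 over all genes. Against control siRNA, 8 members fell and none rose (23.5% and 0%, background 3.42% and 1.86%, or 5.28% in either direction), with a median of -0.19 over the members and -3e-04 over all genes. Both comparisons use the same Compound A libraries, and the second also differs by the siRNA. The count against IL4 was 9 without Compound A replicate 2 or without IL4 replicate 1. Over all genes these 2 fits called 5.95% and 9.8%, in place of 14.4%. The count against control siRNA was 2 without Compound A replicate 2, Compound A replicate 3 or control siRNA replicate 2. Over all genes these fits called 1.7%, 2.08% and 2.42%, in place of 5.28%. It was 4 without control siRNA replicate 1 or 3, beside 2.28% and 3.27% of all genes. Without IL4 replicate 1, which is in neither group of this comparison but in the shared filter, scaling and spread, it was 16, beside 12.7% of all genes. The members' log2 changes with Compound A ran with GC content, with Spearman's rho = -0.528 over 34 members and -0.46 over all genes against IL4, and -0.443 and -0.323 against control siRNA, as a description over genes. After a correction of each library for GC content, 15 members were called against IL4 and 11 against control siRNA, beside 17.6% and 9.51% of all genes, and 563 were higher and 654 lower against control siRNA in place of 238 and 437. A fit of the compared groups only called 7 members against IL4 and 16 against control siRNA, beside 3.18% and 14.3% of all genes.

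With ALOX15 siRNA, SCD rose and no other member was called relative to control siRNA (2.94%, background 0.313% higher, 0.383% lower and 0.696% in either direction). At an unadjusted p under 0.05 in the same test the count was 8 of the 34 members, beside 1140 of all 12795 genes. Between control siRNA and IL4 no member and none of all genes was called by edgeR (background 0%), with 2 members and 628 genes at an unadjusted p under 0.05 and 2 genes by DESeq2.

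**Figure D3:**
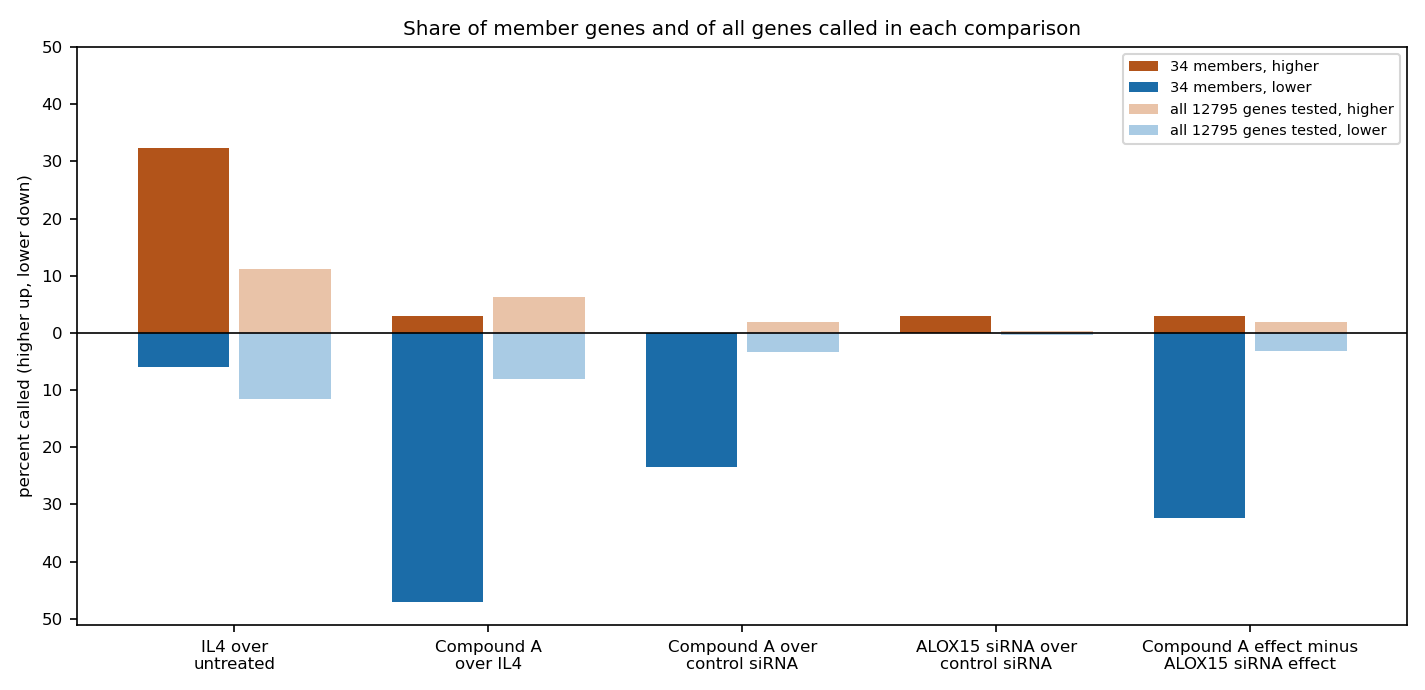
Bars give the percent of the 34 members (dark) and of all 12795 genes tested (pale) with an adjusted p below 0.05 in each of 5 comparisons; bars above 0 are genes higher and bars below 0 genes lower in the group named first. Members called lower with Compound A make up 47.1% against IL4 and 23.5% against control siRNA, above the backgrounds of 8.07% and 3.42%.

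**Figure D4:**
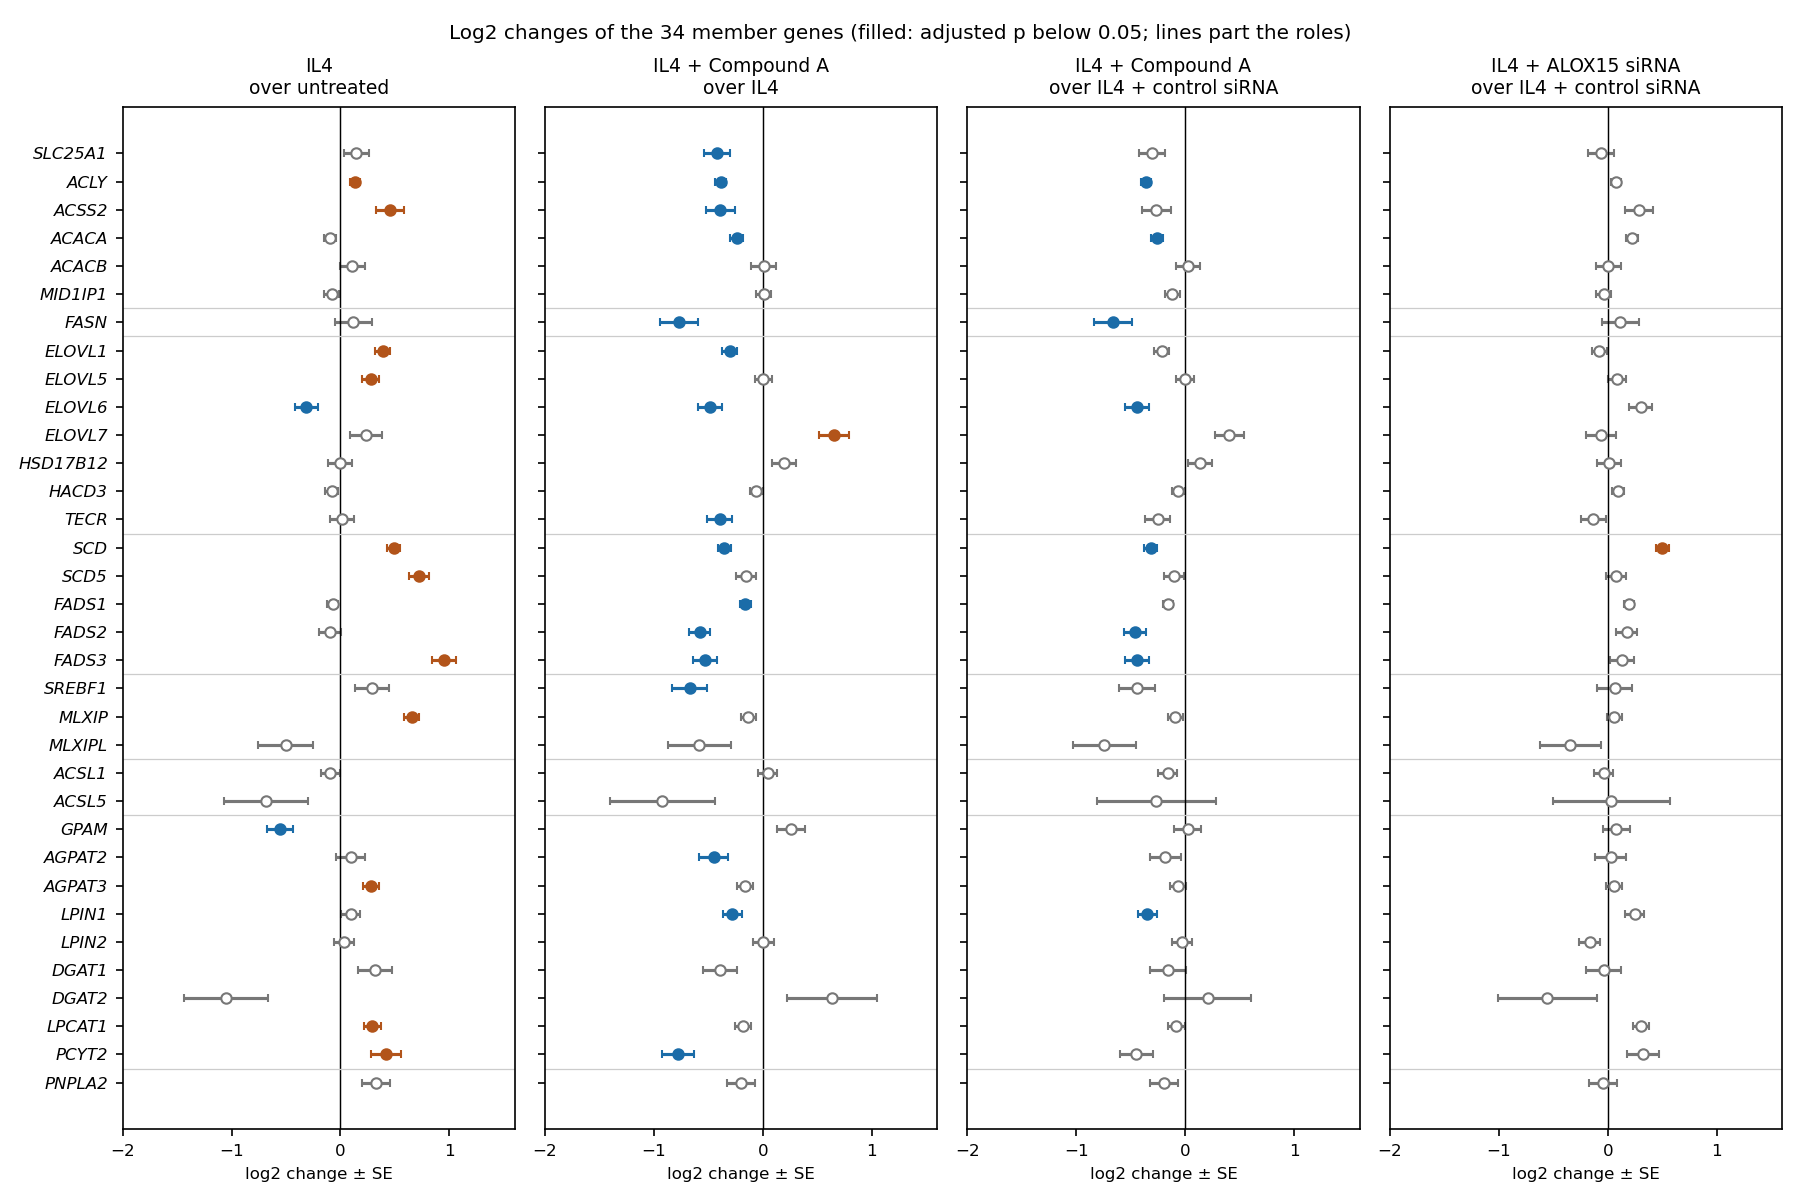
Points are log2 changes of each member with bars of 1 SE, the group named first over the group named second, and filled points have an adjusted p below 0.05. Most points lie left of 0 with Compound A, ELOVL7 lies right of 0 in both Compound A panels without a call against control siRNA, and SCD is the filled point with ALOX15 siRNA.

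Of the 6 genes that supply acetyl-CoA and malonyl-CoA, 4 fell with Compound A against IL4 and 2 against control siRNA (background 8.07% and 3.42%). ACLY, ATP citrate lyase, which cleaves citrate to acetyl-CoA (chr17:41866908-41930542, minus strand, GENCODE models on GRCh38), had 685, 637 and 651 CPM in the Compound A libraries, against 898, 860 and 826 CPM in the IL4 libraries. It had 864, 841 and 830 CPM with control siRNA and 795, 797 and 762 CPM in untreated cells. All 3 Compound A libraries lay below every other library. Compound A changed ACLY by a log2 of -0.39 (SE 0.05, adjusted p = 4.83e-05) against IL4, by -0.36 (SE 0.05, adjusted p = 0.000145) against control siRNA and by -0.25 (SE 0.05, adjusted p = 0.000381) against untreated cells. These 3 calls held in every alternative fit, including each library left out. IL4 changed ACLY by 0.13 (SE 0.05, adjusted p = 0.0462), and this call ended without IL4 replicate 1, untreated replicate 3, ALOX15 siRNA replicate 1 or control siRNA replicate 2 (adjusted p = 0.0587 to 0.121) and came to 0.070 after GC correction.

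ACACA, the acetyl-CoA carboxylase that makes malonyl-CoA for synthesis, had 201, 186 and 184 CPM with Compound A, against 223, 232 and 219 CPM with IL4. It had 231, 233 and 220 CPM with control siRNA and 251, 243 and 226 CPM in untreated cells. The Compound A libraries again lay below the others. Its log2 change was -0.24 (SE 0.06, adjusted p = 0.00807) against IL4, -0.26 (SE 0.06, adjusted p = 0.00979) against control siRNA and -0.34 (SE 0.06, adjusted p = 0.000122) against untreated cells. The call against control siRNA ended without Compound A replicate 2 or 3 or control siRNA replicate 1 or 2 (adjusted p = 0.0518 to 0.0687), and that against IL4 in a fit of the compared groups only (adjusted p = 0.0824).

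ACSS2, the cytosolic synthetase that makes acetyl-CoA from acetate, rose with IL4 to 33.3, 28.1 and 28.9 CPM, against 24.1, 21.1 and 20.2 CPM in untreated cells, and the groups did not overlap. The change of ACSS2 on the log2 scale was 0.45 (SE 0.13, adjusted p = 0.0146) and was called in every alternative fit. With Compound A it had 28.2, 19.0 and 21.6 CPM, which overlapped the IL4 libraries, and its log2 change of -0.39 (adjusted p = 0.0496) ended in 11 of the 15 fits that left out 1 library (up to adjusted p = 0.244). SLC25A1, the mitochondrial citrate carrier, had 31.7, 28.8 and 31.6 CPM with Compound A, against 48.0, 39.7 and 35.4 CPM with IL4. Its log2 change of -0.42 (SE 0.12, adjusted p = 0.0201) ended without IL4 replicate 1 or Compound A replicate 2 (adjusted p = 0.0785 to 0.102), and it was -0.15 (adjusted p = 0.217) after GC correction. ACACB, the carboxylase tied to the control of oxidation, and MID1IP1, which promotes assembly of carboxylase polymers, were called in none of the comparisons. Their means ran from 17.8 to 19.5 CPM and from 78.3 to 85.5 CPM over the 5 groups.

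FASN encodes fatty acid synthase, the enzyme that builds palmitate (chr17:82078333-82098332, minus strand). It had 201, 180 and 188 CPM with Compound A, against 425, 295 and 251 CPM with IL4 and 302, 327 and 274 CPM with control siRNA. It had 325, 327 and 327 CPM with ALOX15 siRNA and 364, 265 and 262 CPM in untreated cells. Every Compound A library was below every other library, while replicate 1 was the highest of the IL4 and of the untreated libraries. The log2 change with Compound A was -0.77 (SE 0.17, adjusted p = 0.0127) against IL4, -0.66 (SE 0.17, adjusted p = 0.0468) against control siRNA and -0.65 (SE 0.17, adjusted p = 0.0146) against untreated cells. The first call ended without IL4 replicate 1, at -0.52, or Compound A replicate 2 (adjusted p = 0.0514 to 0.0598). The second ended in 12 of the 15 fits that left out 1 library (adjusted p = 0.0535 to 0.172), and the third without Compound A replicate 2 or 3 or untreated replicate 1 (adjusted p = 0.0515 to 0.0834). After GC correction the changes were -0.48 (adjusted p = 2.73e-06), -0.50 (adjusted p = 2.65e-06) and -0.61 (adjusted p = 5.27e-09).

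Of the 7 elongation genes, 2 rose and 1 fell with IL4 (background 11.2% and 11.6%). With Compound A against IL4, 1 rose and 3 fell (background 6.35% and 8.07%). ELOVL7, an elongase of long saturated chains, was the only member called higher with Compound A than with IL4. It had 27.4, 29.8 and 28.7 CPM with Compound A, against 14.1, 18.4 and 22.2 CPM with IL4 and 22.6, 20.9 and 21.4 CPM with control siRNA. It had 18.0, 19.6 and 24.4 CPM with ALOX15 siRNA and 13.8, 16.1 and 17.0 CPM in untreated cells. The Compound A libraries were above all others. The change of ELOVL7 on the log2 scale was 0.65 (SE 0.14, adjusted p = 0.00364) against IL4 and 0.89 (SE 0.14, adjusted p = 4.31e-05) against untreated cells, and both calls held in every alternative fit. Against control siRNA it was 0.40 (SE 0.13) and did not pass (adjusted p = 0.0886). The libraries with control siRNA were 0.48 above untreated cells (SE 0.14, adjusted p = 0.0213), a call that ended without control siRNA replicate 1 or untreated replicate 1 (adjusted p = 0.0676 to 0.0912).

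ELOVL6, which extends palmitate to stearate, had 20.2, 16.4 and 16.2 CPM with Compound A, against 25.8, 24.9 and 23.2 CPM with IL4 and 24.2, 24.3 and 23.6 CPM with control siRNA. Untreated cells had 32.5, 28.4 and 30.6 CPM. The IL4-treated controls lay below the untreated libraries, and the Compound A libraries below both. The log2 change with Compound A was -0.48 (SE 0.11, adjusted p = 0.00641) against IL4, -0.45 (SE 0.11, adjusted p = 0.023) against control siRNA and -0.79 (SE 0.11, adjusted p = 7.66e-06) against untreated cells. With IL4 it was -0.31 (SE 0.10, adjusted p = 0.0325), a call that ended in 10 of the 15 fits that left out 1 library (up to adjusted p = 0.152), after GC correction and with DESeq2. The call against control siRNA ended without Compound A replicate 2 or 3 or any 1 control siRNA library (adjusted p = 0.0549 to 0.138), and that against IL4 in a fit of the compared groups only (adjusted p = 0.0618).

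ELOVL1, which makes saturated very long chains, had 67.7, 61.2 and 65.7 CPM with IL4, against 51.8, 48.6 and 47.8 CPM in untreated cells. Its log2 change was 0.39 (SE 0.07, adjusted p = 0.000278), called in every alternative fit. With Compound A it had 52.5, 51.5 and 53.5 CPM, which is -0.31 on the log2 scale (SE 0.07, adjusted p = 0.00587) from the IL4 libraries and came to -0.19 after GC correction and ended in a fit of the compared groups only (adjusted p = 0.0638). ELOVL5, an elongase of polyunsaturated fatty acids, averaged 204 ± 28.5 CPM with IL4 and 168 ± 1.65 CPM in untreated cells (SD, n = 3 each). Its log2 change of 0.28 (SE 0.08, adjusted p = 0.016) ended without IL4 replicate 2 (adjusted p = 0.0659), and with Compound A it stood at 205 ± 1.73 CPM, 0.28 above untreated cells (adjusted p = 0.0121).

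TECR, the reductase of the last step of each elongation cycle, had 47.1, 49.7 and 54.2 CPM with Compound A, against 79.3, 63.3 and 55.6 CPM with IL4. The groups lay close at their nearest libraries, and the log2 change of -0.39 (SE 0.11, adjusted p = 0.0268) was -0.25 without IL4 replicate 1 and ended without it or Compound A replicate 1 or 2 (adjusted p = 0.0888 to 0.102). HSD17B12 and HACD3, the ketoreductase and a dehydratase of the cycle, were called in none of the comparisons. HSD17B12 averaged 172 to 196 CPM and HACD3 317 to 354 CPM over the groups.

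Of the 5 desaturases, 3 rose with IL4, 4 fell with Compound A against IL4 and 3 fell against control siRNA (background 11.2%, 8.07% and 3.42%). SCD (chr10:100347124-100364834, plus strand) had 3884, 4020 and 3689 CPM with ALOX15 siRNA and 2458, 2039 and 2079 CPM with Compound A. It had 2759, 2734 and 2697 CPM with control siRNA, 2808, 2921 and 2684 CPM with IL4 and 2105, 1985 and 1906 CPM in untreated cells. The ALOX15 siRNA libraries were above all others, and the Compound A libraries lay below both IL4-treated control groups and overlapped the untreated ones.

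IL4 changed SCD by a log2 of 0.49 (SE 0.06, adjusted p = 4.56e-06) and control siRNA with IL4 by 0.45 (SE 0.06, adjusted p = 1.29e-05) against untreated cells. Compound A changed it by -0.36 (SE 0.06, adjusted p = 0.000776) against IL4 and by -0.32 (SE 0.06, adjusted p = 0.00396) against control siRNA. ALOX15 siRNA changed it by 0.50 (SE 0.06, adjusted p = 0.000178) against control siRNA, a 1.42-fold rise. Each of these 5 calls held in every alternative fit. Against untreated cells the Compound A libraries differed by 0.13 (SE 0.06) and did not pass (adjusted p = 0.114).

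FADS2, a desaturase of polyunsaturated fatty acid synthesis (chr11:61792980-61867354, plus strand), had 455, 362 and 373 CPM with Compound A, against 685, 571 and 522 CPM with IL4 and 547, 574 and 519 CPM with control siRNA. Untreated cells had 698, 624 and 577 CPM. The Compound A libraries lay below every other library. FADS2 changed by a log2 of -0.58 (SE 0.10, adjusted p = 0.00124) against IL4, -0.46 (SE 0.10, adjusted p = 0.011) against control siRNA and -0.67 (SE 0.10, adjusted p = 5.21e-05) against untreated cells. The call against control siRNA ended without Compound A replicate 2 or 3 or control siRNA replicate 2 (adjusted p = 0.055 to 0.079), and the others held in every alternative fit.

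FADS1, the neighbouring desaturase of the same pathway, had 596, 555 and 577 CPM with Compound A, against 659, 649 and 622 CPM with IL4. Its log2 change was -0.16 (SE 0.05, adjusted p = 0.0335), a call that ended without Compound A replicate 2 or 3 or IL4 replicate 1 or 2 (adjusted p = 0.0617 to 0.142). Against control siRNA the change was also -0.16 (SE 0.05) but did not pass (adjusted p = 0.0609), and against untreated cells it was -0.23 (SE 0.05, adjusted p = 0.0012). Exons of FADS1 and FADS2 overlap by 142 bases on opposite strands, and FADS2 shares 49 bases with FEN1. The strand setting of the counting was not given in the sources used here, so reads there cannot be assigned with certainty.

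FADS3, a further desaturase of the same cluster that acts on sphingolipid bases, had 31.8, 25.2 and 29.1 CPM with IL4, against 16.5, 14.2 and 13.3 CPM in untreated cells, the largest rise with IL4 among the members. The change of FADS3 on the log2 scale was 0.95 (SE 0.11, adjusted p = 2.16e-06), and control siRNA libraries, at 25.0, 29.6 and 26.4 CPM, gave 0.86 (SE 0.11, adjusted p = 9.64e-06). With Compound A it had 20.7, 18.5 and 20.4 CPM, between the untreated and the IL4 libraries without overlap with either. That was -0.53 (SE 0.11, adjusted p = 0.00328) against IL4 and 0.42 (SE 0.12, adjusted p = 0.0102) against untreated cells, both held in every alternative fit. Against control siRNA it was -0.45 (SE 0.11, adjusted p = 0.0227) and ended without Compound A replicate 2 or 3 or control siRNA replicate 2 or 3 (adjusted p = 0.055 to 0.139).

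SCD5, the other human stearoyl-CoA desaturase, had 38.5, 44.4 and 41.7 CPM with IL4, against 27.9, 24.7 and 22.3 CPM in untreated cells. That is a change on the log2 scale of 0.72 (SE 0.09, adjusted p = 6.81e-06) with IL4 and 0.67 (SE 0.09, adjusted p = 2.21e-05) with control siRNA, and both held in every alternative fit. With Compound A it had 38.2, 34.9 and 38.8 CPM, which overlapped the IL4 libraries, a log2 change of -0.16 (SE 0.09, adjusted p = 0.241). Whether Compound A acted differently on SCD and SCD5 was not tested.

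**Figure D5:**
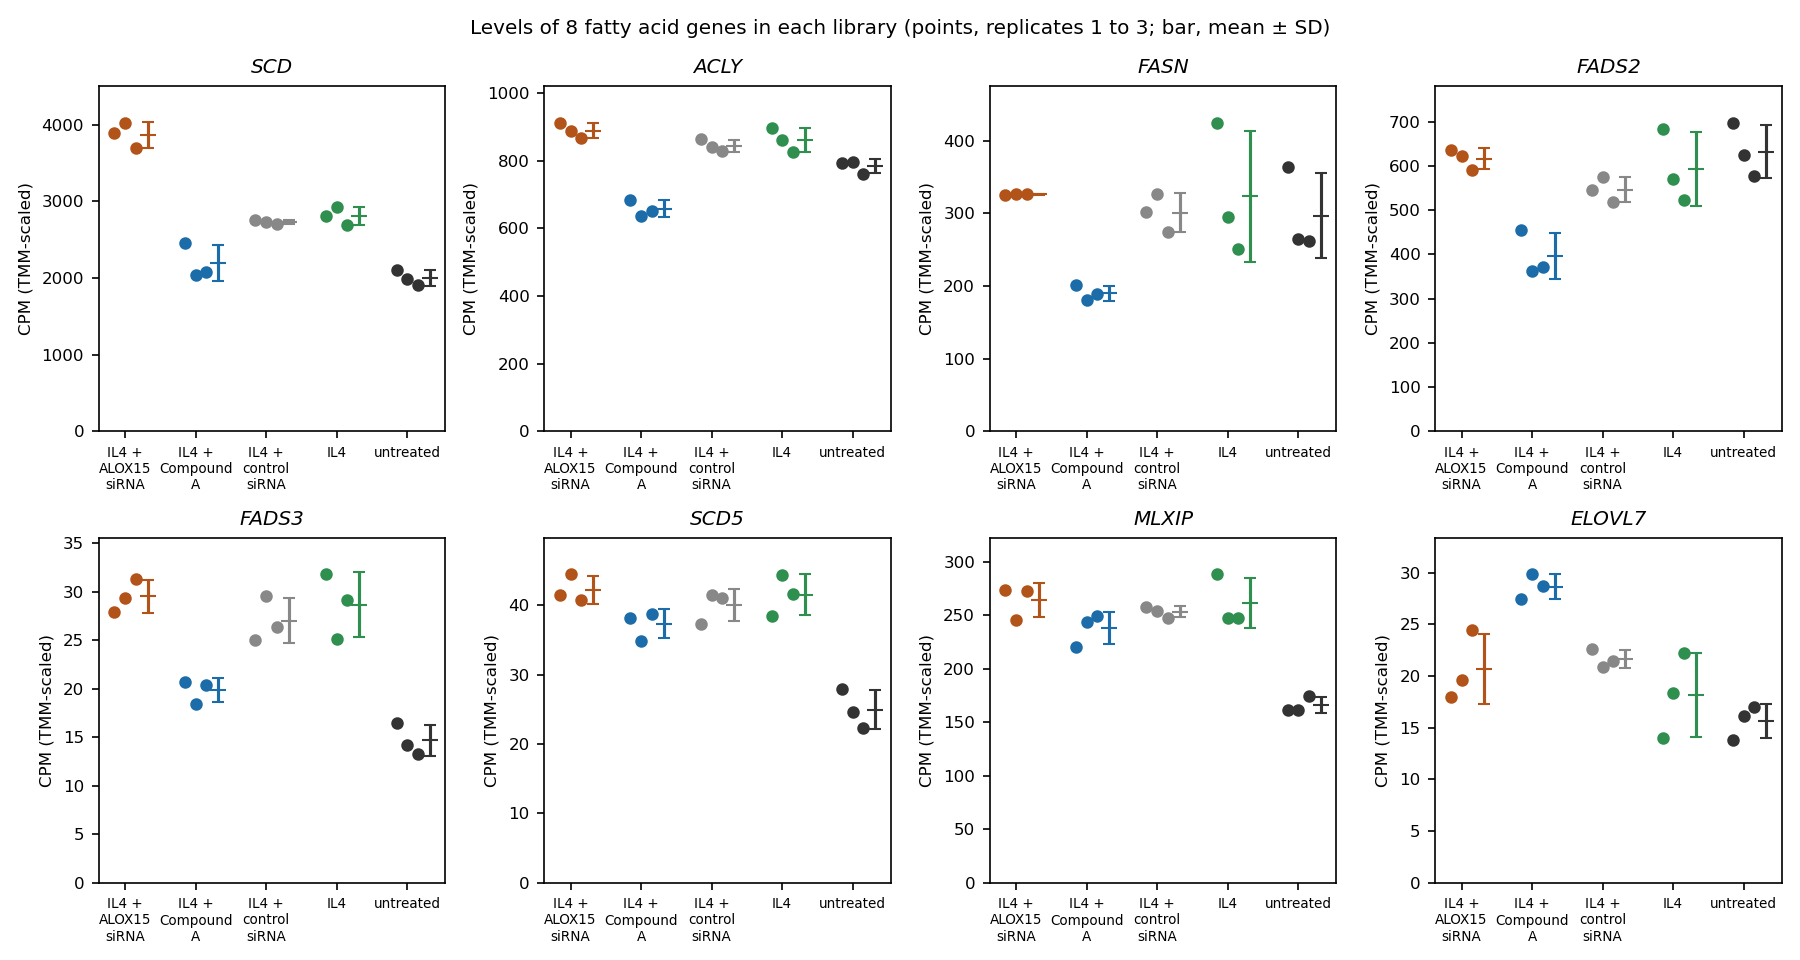
Points are CPM in each library of 8 members, with the group mean and SD beside them; groups run from ALOX15 siRNA on the left to untreated on the right, and every axis starts at 0. The 3 Compound A libraries are the lowest for ACLY, FASN and FADS2 and the highest for ELOVL7, and the ALOX15 siRNA libraries are the highest for SCD, at 3689 to 4020 CPM.

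Among the 3 transcription factor genes, MLXIP rose with IL4 and SREBF1 fell with Compound A against IL4. MLXIP, a glucose-sensing factor also known as MondoA, had 288, 248 and 248 CPM with IL4, against 162, 161 and 175 CPM in untreated cells. MLXIP changed by a log2 of 0.66 (SE 0.07, adjusted p = 4.5e-07), and it was 0.61 (SE 0.07, adjusted p = 1.32e-06) with control siRNA and 0.52 (SE 0.07, adjusted p = 7.04e-06) with Compound A against untreated cells. These 3 calls held in every alternative fit. Compound A itself gave -0.13 against IL4 (SE 0.07, adjusted p = 0.187).

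SREBF1, which encodes SREBP-1, had 94.6, 80.5 and 101 CPM with Compound A, against 190, 136 and 113 CPM with IL4 and 121, 137 and 117 CPM with control siRNA. The Compound A libraries lay below both groups. The change of SREBF1 on the log2 scale was -0.67 (SE 0.16, adjusted p = 0.0148) against IL4, and it was -0.44 without IL4 replicate 1, where the call ended, as it did without Compound A replicate 2 (adjusted p = 0.0564 to 0.0726). After GC correction it was -0.44 (adjusted p = 0.000865). Against control siRNA it was -0.44 (SE 0.16) and did not pass (adjusted p = 0.144). MLXIPL, which encodes the related factor ChREBP, averaged 2.91 ± 0.310 CPM with Compound A and 6.13 ± 1.23 CPM in untreated cells (SD, n = 3 each), a log2 change of -1.08 (SE 0.27, adjusted p = 0.00447). Its IL4 libraries spread from 3.0 to 6.82 CPM, the highest being replicate 1.

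Of the 2 acyl-CoA synthetases that activate free fatty acids, ACSL5 was lower than in untreated cells with Compound A and with control siRNA, and ACSL1 was called in none of the comparisons and averaged 38.1 to 44.0 CPM over the groups. ACSL5 was the scarcest member, at 0.516 ± 0.203 CPM with Compound A, 0.638 ± 0.0781 with control siRNA, 1.01 ± 0.520 with IL4 and 1.65 ± 0.494 in untreated cells (SD, n = 3 each). Its log2 change was -1.61 (SE 0.43, adjusted p = 0.00825) with Compound A and -1.34 (SE 0.43, adjusted p = 0.0345) with control siRNA against untreated cells. The first call ended without Compound A replicate 1 or untreated replicate 2 (adjusted p = 0.0501 to 0.0602), and the second without any 1 control siRNA library or untreated replicate 2 or 3 (adjusted p = 0.0581 to 0.18). Its exons share 144 bases on the opposite strand with ZDHHC6, which averaged 45.1 CPM over the 15 libraries, so part of these few counts may not be its own.

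Of the 9 genes of glycerolipid assembly, 3 rose and 1 fell with IL4 (background 11.2% and 11.6%), and the count that fell is near that share. With Compound A against IL4, 3 fell (background 8.07%). GPAM, the mitochondrial acyltransferase that starts the pathway on glycerol phosphate, had 16.1, 22.3 and 17.2 CPM with IL4, against 25.7, 28.9 and 27.4 CPM in untreated cells. That is a change on the log2 scale of -0.56 (SE 0.12, adjusted p = 0.00205), called in every alternative fit. With control siRNA it averaged 21.8 ± 0.522 CPM and with Compound A 22.2 ± 1.74 CPM (SD, n = 3 each). Of the acyltransferases that make phosphatidic acid, AGPAT3 averaged 66.9 ± 5.94 CPM with IL4 and 54.9 ± 1.66 CPM in untreated cells, a log2 change of 0.28 (SE 0.07, adjusted p = 0.00692), which was 0.17 after GC correction and ended in a fit of the compared groups only (adjusted p = 0.0646). AGPAT2 averaged 24.4 ± 1.78 CPM with Compound A, against 33.3 ± 7.14 CPM with IL4 (SD, n = 3 each). Its log2 change of -0.45 (adjusted p = 0.0329) was -0.27 without IL4 replicate 1 and -0.17 after GC correction, and ended without that library or any 1 Compound A library (adjusted p = 0.0633 to 0.158).

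PCYT2, the rate-limiting enzyme of phosphatidylethanolamine synthesis from ethanolamine, had 12, 10.2 and 9.97 CPM with Compound A, against 21.6, 18.5 and 15.3 CPM with IL4 and 13.8, 16.0 and 14.4 CPM with control siRNA. The Compound A libraries were the lowest of the 3 groups. The log2 change against IL4 was -0.78 (SE 0.15, adjusted p = 0.00182), called in every alternative fit, and against control siRNA -0.45 (SE 0.15), which did not pass (adjusted p = 0.0951). With IL4 it was 0.42 (adjusted p = 0.0352) with groups that overlapped, and this call ended without IL4 replicate 1 or 2 or untreated replicate 2 or 3 (adjusted p = 0.058 to 0.153) and was 0.21 (adjusted p = 0.191) after GC correction. Exons of PCYT2 overlap NPB by 1941 bases on the opposite strand, but NPB averaged 0.0577 CPM.

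LPIN1, a phosphatidic acid phosphatase that makes diacylglycerol, had 39.5, 42.2 and 37.5 CPM with Compound A, against 50.9, 46.1 and 48.1 CPM with IL4 and 48.9, 50.2 and 53.1 CPM with control siRNA. The Compound A libraries lay below both groups. LPIN1 changed by a log2 of -0.28 (SE 0.09, adjusted p = 0.0393) against IL4 and -0.35 (SE 0.09, adjusted p = 0.0243) against control siRNA. The first call ended without any 1 Compound A library or IL4 replicate 1 (adjusted p = 0.0607 to 0.133) and the second without any 1 library of either compared group (adjusted p = 0.0566 to 0.122). LPCAT1, an acyltransferase of phosphatidylcholine known for its part in surfactant lipid, had 90.1, 78.7 and 77.2 CPM with IL4, against 69.6, 69.4 and 60.7 CPM in untreated cells, a log2 change of 0.29 (SE 0.07, adjusted p = 0.00694) that ended in a fit of the compared groups only (adjusted p = 0.0642).

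LPIN2, DGAT1 and DGAT2, a second phosphatase and the enzymes of the last step to triglyceride, were called in none of the comparisons, nor was PNPLA2, the lipase that starts triglyceride breakdown. LPIN2 averaged 50.2 to 56.4 CPM, DGAT1 21.8 to 28.7 CPM, DGAT2 0.927 to 2.06 CPM and PNPLA2 36 to 45.5 CPM over the groups. DGAT2 came nearest to a call, at -1.05 with IL4 (SE 0.39, adjusted p = 0.0571). DGAT1 shares 139 bases of exon on the opposite strand with HSF1.

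Against untreated cells, the Compound A libraries had 5 members higher (14.7%, background 12.7%) and 9 lower (26.5%, background 13.5%, or 26.2% in either direction). The 5 higher were ELOVL5, ELOVL7, FADS3, MLXIP and SCD5. The 9 lower were ACACA, ACLY, ACSL5, ELOVL6, FADS1, FADS2, FASN, MLXIPL and TECR. The call of TECR ended without Compound A replicate 1 or 2 or untreated replicate 1 (adjusted p = 0.0737 to 0.147), and leaving out 1 library gave 12 to 21 members in all. Over all genes these fits called 19.5% to 33.9%. After GC correction 21 members were called in place of 14, and over all genes 4459 (34.8%) in place of 3349 (26.2%).

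The effect of Compound A over IL4 and that of ALOX15 siRNA over control siRNA differed for 12 members by a test of the difference itself. Of these 11 had a lower change with Compound A (32.4%, background 3.2%) and 1 a higher one (2.94%, background 1.94%, or 5.14% in either direction). After GC correction, 650 of all genes had a higher and 669 a lower change in place of 248 and 410. The difference in log2 change was -0.86 (SE 0.09, adjusted p = 5.84e-06) for SCD, -1.10 (SE 0.21, adjusted p = 0.00298) for PCYT2 and -0.75 (SE 0.14, adjusted p = 0.00382) for FADS2. It was -0.46 for both ACLY (adjusted p = 0.000319) and ACACA (adjusted p = 0.00165). The call held in every alternative fit for ACLY, ACACA, ELOVL6, SCD, FADS1, FADS2, LPCAT1 and PCYT2. The values behind it with ALOX15 siRNA, other than for SCD, did not pass by themselves. LPCAT1 had 95.3, 98.7 and 90.1 CPM with ALOX15 siRNA, against 77.0, 79.0 and 73.4 CPM with control siRNA, a log2 change of 0.31 (SE 0.07, adjusted p = 0.0673). FADS1 had 733, 768 and 710 CPM, against 640.0, 639.6 and 650.3 CPM, a change of 0.20 (SE 0.05, adjusted p = 0.0747). ACACA had 271, 264 and 262 CPM, against 231, 233 and 220 CPM, a change of 0.22 (SE 0.06, adjusted p = 0.0879). The groups did not overlap for these 3 genes, and each passed without IL4 replicate 1 in the fit, where 4 members and 2.1% of all genes were called. Of the 34 members, 11 lay above and 1 lay below control siRNA in all 3 ALOX15 siRNA libraries, against 9.47% and 9.18% of all genes; by the test, 0.313% of all genes were called higher.

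Other genes of the pathway were read from lists that do not share members with the 34. Of 20 genes of SREBP and LXR control, 7 fell and 2 rose with Compound A against IL4 (background 8.07% and 6.35%). Against control siRNA, 6 fell and none rose (background 3.42% and 1.86%). With ALOX15 siRNA, 1 rose and none fell (background 0.313% and 0.383%). INSIG1, which holds SREBP in the endoplasmic reticulum, averaged 82.3 ± 8.14 CPM with ALOX15 siRNA and 56.1 ± 1.16 CPM with control siRNA (SD, n = 3 each), a change of 0.55 (SE 0.08, adjusted p = 0.00244), called in every alternative fit. With Compound A INSIG1 changed by -0.36 (SE 0.09, adjusted p = 0.0106) against IL4, which ended without Compound A replicate 3 (adjusted p = 0.0505), and by -0.46 (SE 0.09, adjusted p = 0.00444) against control siRNA. The sterol efflux pump gene ABCA1 was 0.33 higher on the log2 scale with Compound A than with IL4 (adjusted p = 0.0329), a call that ended without Compound A replicate 2 or 3 or IL4 replicate 1 or 2 (adjusted p = 0.0912 to 0.127).

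Of 40 tested genes among 45 other fatty acid and glycerolipid enzymes, 3 rose and 6 fell with IL4. With Compound A 2 rose and 3 fell against IL4, and 1 rose and none fell against control siRNA, beside the backgrounds given above. The median log2 change of these 40 was -0.043 against IL4. PPAP2B, a lipid phosphatase, averaged 76.9 ± 2.94 CPM with IL4 and 35.0 ± 2.04 CPM in untreated cells (SD, n = 3 each), a log2 change of 1.13 (SE 0.08, adjusted p = 2.51e-09). ELOVL2, an elongase of long polyunsaturated acids, averaged 18.5 ± 4.81 and 37.6 ± 3.14 CPM in these groups, a change of -1.02 (SE 0.13, adjusted p = 6.32e-06).

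Of 15 genes of NADPH and citrate supply, none rose and 4 fell with Compound A against IL4 (background 6.35% and 8.07%), and 2 fell against control siRNA (background 3.42%). CS, citrate synthase, averaged 223 ± 4.21 CPM with Compound A, against 266 ± 1.99 CPM with IL4 (SD, n = 3 each), a log2 change of -0.26 (SE 0.05, adjusted p = 0.00163, and 0.0555 in a fit of the compared groups only), and -0.25 (SE 0.05, adjusted p = 0.00396) against control siRNA. Of 11 tested genes among 18 of lipid droplets and lipolysis, 1 was called with Compound A (background in either direction 14.4% against IL4 and 5.28% against control siRNA). This was PLIN2, a droplet coat protein. It averaged 47.0 ± 4.65 CPM with Compound A, against 32.7 ± 1.33 CPM with IL4 (SD, n = 3 each), a change of 0.52 (SE 0.08, adjusted p = 0.000503). Against control siRNA it was 0.34 (adjusted p = 0.0205), which ended without Compound A replicate 2 or 3 or control siRNA replicate 1 or 3 (adjusted p = 0.0617 to 0.121). Of 25 tested genes among 31 of uptake and oxidation, 6 rose and 2 fell with IL4 (background 11.2% and 11.6%). With Compound A against IL4, 1 rose and 1 fell, both below the background of 6.35% and 8.07%. SLC27A2, a fatty acid transporter and very long chain acyl-CoA synthetase, averaged 96.2 ± 6.15 CPM with ALOX15 siRNA and 142 ± 2.16 CPM with control siRNA (SD, n = 3 each), a change of -0.56 (SE 0.06, adjusted p = 4.86e-05).

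Markers of cell types moved with the groups too. The summed level of 8 alveolar type II markers, nearly all of it ABCA3, was 72.6 to 75.9 CPM with ALOX15 siRNA, 53.3 to 62.4 with Compound A, 60.7 to 66.6 with control siRNA, 58.5 to 75.3 with IL4 and 39.2 to 39.9 in untreated cells. All libraries with IL4 were thus above the untreated ones, and ABCA3 changed by 0.71 on the log2 scale with IL4 (SE 0.09, adjusted p = 7.25e-06). KRT8 and KRT18 were 1.72-fold and 1.79-fold higher with IL4 (adjusted p = 2.89e-06 and 6.66e-10). The other epithelial markers did not all move that way. KRT19 changed by a log2 of 0.55 (adjusted p = 0.00871), EPCAM by -0.53 (adjusted p = 0.0128) and CDH1 by 0.14 (adjusted p = 0.109). The sum of 6 fibroblast markers, mostly COL1A1, was 17.8 to 20.8 CPM with ALOX15 siRNA, 8.92 to 12.2 with Compound A, 15.6 to 18.9 with control siRNA, 19.1 to 26.5 with IL4 and 8.60 to 10.9 in untreated cells. The sum of 5 leukocyte markers was 15.9 to 17.4 CPM with ALOX15 siRNA, 7.75 to 11.9 with Compound A, 13.98 to 17.8 with control siRNA, 17.2 to 23.9 with IL4 and 10.8 to 14.6 in untreated cells. Both sums were lower with Compound A than in every library with control siRNA or IL4. The sum of 4 adipocyte markers, mostly CIDEC, a lipid droplet protein, was 14.2 to 16.0 CPM with ALOX15 siRNA, 8.39 to 13.2 with Compound A, 9.92 to 11 with control siRNA, 11.9 to 15.2 with IL4 and 9.92 to 12.4 in untreated cells. It was higher with ALOX15 siRNA than with control siRNA without overlap, where CIDEC changed by 0.53 (SE 0.16, adjusted p = 0.169). The change of CIDEC with Compound A minus that with ALOX15 siRNA was -0.94 (SE 0.22, adjusted p = 0.016). The sum of 4 airway markers was 782 to 878 CPM with ALOX15 siRNA, 537 to 745 with Compound A, 721 to 758 with control siRNA, 665 to 1015 with IL4 and 881 to 996 in untreated cells, and that of 4 endothelial markers stayed below 1 CPM. Within these lists COL1A2, PTPRC, CD3E, ADIPOQ and LEP were at 0 in all 15 libraries. The part of the cell type markers in the changes of the members was not tested.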

How the data were processed

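RNA of 15 libraries was sequenced. The deposited table holds the expected counts per gene that the authors obtained with RSEM, unscaled. Per the submitters' processing notes, Bowtie2 2.1.0, RSEM 1.2.15 and the hg38 build were used. Which annotation, filter on reads or strand option was used is not given in the sources used here. All counts of the 34 members were whole. Between 3.63% and 4.19% of the table's values per library were not whole (tolerance 1e-06), and counts were rounded before testing.

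Groups were taken from the labels. The members and the other lists were chosen with earlier results of these data known. All 34 members are named, and of each other list up to 4 called genes per comparison with the largest absolute log2 change, some of which are not reported here. Counts were filtered with filterByExpr, scaled by TMM and fitted for all 15 libraries together, with 1 coefficient per group and no covariate, by edgeR 4.0.16 (robust quasi-likelihood) in R 4.3.3 with limma 3.58.1. P-values were adjusted by Benjamini-Hochberg over 12795 genes, at a threshold of 0.05. The SE of a log2 change was computed as the size of the change over the root of its F statistic. The procedure was tested on simulated data. The depth of 6407936 to 11031246 counts leaves the scarcest members, near 1 CPM, with few counts. Alternatives were scaling by RLE or by the upper quartile, no filter, 1 CPM in 3 libraries as filter, unrounded counts, DESeq2 1.42.0, a replicate block, a correction for transcript GC content (loess span 0.3, a GC value for 95.19% of tested genes) alone and with the block, the compared groups only, and each library left out in turn. Exon positions and GC content came from GENCODE models on GRCh38, and promoters from RefSeq.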

Additional observations from a re-analysis of the deposited data

Results flagged for a closer look

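For 12 members the change with Compound A over IL4 and the change with ALOX15 siRNA over control siRNA differed by a test of the difference (edgeR, adjusted p below 0.05). Each value below is the log2 change with Compound A minus that with ALOX15 siRNA. Among the desaturases it was -0.86 for SCD, -0.75 for FADS2, -0.66 for FADS3 and -0.36 for FADS1. Among genes of acetyl-CoA and malonyl-CoA supply it was -0.68 for ACSS2, -0.46 for ACLY and -0.46 for ACACA. Of the elongases, ELOVL6 gave -0.79 and ELOVL7 gave 0.71. In glycerolipid assembly it was -1.10 for PCYT2, -0.53 for LPIN1 and -0.49 for LPCAT1. The calls of 4 of the 12 ended when 1 library was left out. That of ACSS2 ended in 7 such fits (up to adjusted p = 0.119) and that of ELOVL7 in 10 (up to adjusted p = 0.112). That of FADS3 ended without Compound A replicate 2 (adjusted p = 0.0567) and that of LPIN1 without ALOX15 siRNA replicate 2 (adjusted p = 0.0523). The IL4 libraries enter this difference, and 13 members were called without IL4 replicate 1 and 15 after GC correction. Over all genes these fits called 6.32% and 10.3%, in place of 5.14%.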

How the results depend on the processing

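Each count of members called was recomputed under 25 alternatives, and no called change turned its direction under them. Counts within 1.5 times the reported ones are not listed. With ALOX15 siRNA, where 1 member was called, there were 4 with DESeq2, 4 with the replicate block, 4 with GC correction, 6 with GC correction and the replicate block together, and 5 in a fit of the compared groups only. Over all genes these fits called 0.938%, 1%, 2.24%, 2.63% and 2.63% in the same order, in place of 0.696%. Control siRNA against untreated cells gave 14 members, in place of 9, with GC correction and the replicate block. Over all genes that fit called 28.3% in place of 19.3%. The compared groups only gave 7 members in place of 13 for IL4 against untreated, 7 in place of 17 for Compound A against IL4, and 16 in place of 8 for Compound A against control siRNA. Over all genes these fits called 1466 in place of 2925, 397 in place of 1846 and 1768 in place of 675, and for ALOX15 siRNA 325 in place of 89. GC correction called 1217 genes in place of 675 for Compound A against control siRNA, 287 in place of 89 for ALOX15 siRNA and 1319 in place of 658 for the difference. With 1 library left out, the count of members ran from 11 to 15 for IL4, 6 to 14 for control siRNA against untreated, 9 to 20 for Compound A against IL4, 2 to 16 against control siRNA, 12 to 21 against untreated, 1 to 4 for ALOX15 siRNA, 0 to 0 for control siRNA against IL4, and 9 to 14 for the difference. The share of all genes called moved in these fits too. It ran from 15.3% to 25.6% for IL4 and from 14.1% to 26.4% for control siRNA against untreated. For Compound A it ran from 5.95% to 23.3% against IL4, 1.7% to 12.7% against control siRNA and 19.5% to 33.9% against untreated. For ALOX15 siRNA it ran from 0.271% to 2.1%, and for the difference from 2.51% to 8.92%. The cause of these shifts was not tested. Same-numbered libraries correlated by -0.128 to 0.286 in their deviations from the group means (median 0.0224, 30 pairs). Libraries of other numbers correlated by -0.237 to 0.232 (median -0.00985, 60 pairs). By mean correlation, 9 of 15 libraries went best with those of their own number. With the replicate block, 2508 genes in place of 1846 were called for Compound A against IL4. Whether the replicate numbers pair the libraries was not tested. Genes near 1 CPM, such as ACSL5 and DGAT2, have few counts behind them, and how small a change could be called in them was not tested.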
